A study of Mus musculus with 6 samples.

Results

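The genes described here handle cholesterol and other lipids. They were taken from a list of 52 named symbols plus every gene whose symbol begins with Abca and a digit. Of the listed symbols 48 had a row of values, 4 (Idi1, Fdft1, Cd36 and Soat1) were not analysed here, and with the further ABCA genes the set held 57 of the 12235 genes measured. They were sorted by role into sterol synthesis, sterol sensing, efflux, uptake, intracellular sterol handling, fatty acid synthesis, acyl-CoA activation and storage.

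The RNA came from cancer-associated fibroblasts that carry podoplanin (pCAFs), the stromal cells of a tumour that make and remodel its matrix. The tumours grew from 4T1 mammary carcinoma cells, 100000 of which had been placed in the mammary fat pad of BALB/c females aged 8 weeks, and were collected at a size of 1 cm. All cells were sorted as propidium iodide-, Ter119-, CD45-, EpCAM- and PDPN+, and then divided by Ly6C, a surface protein, into Ly6C+ pCAFs (3 libraries) and Ly6C- pCAFs (3 libraries). The tumour cells are called a GFP line in 1 label and a luciferase line in another, and all mice carried them, so no group came from tumour-free tissue. No label says whether the 3 libraries of a group came from separate animals, and p-values measure the spread between these libraries, which may be technical.

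Each library read the 3′ ends of mRNA. The Ly6C+ libraries held 2150531 to 2818269 reads and the Ly6C- libraries 1176909 to 1721480, so depth moved with the groups. The depth's part in the results was not tested, although every value below is scaled to a library's size. Of 7 fibroblast markers, Pdgfra stood at 490.4, 510.4 and 555 for Ly6C+ and 206, 219 and 229 for Ly6C-. Thy1, Dcn, Col1a1 and Col1a2 were above Pdgfra in both groups, and 2 markers were below it. Pdpn, the gene of the sort marker, stood at 223, 181 and 223 for Ly6C+ and 143, 76.6 and 66.9 for Ly6C-. Lum stood at 134, 48.1 and 80.4 for Ly6C+ and only 4.92, 8.51 and 36.7 for Ly6C-. In all, 4 of the 7 (Pdgfra, Pdpn, Dcn and Lum) were higher in Ly6C+ pCAFs. Levels are normalised counts (reads divided by 1 factor per library) given per library, 1 to 3 in the order of the labels' replicate numbers, and as mean ± SD of Ly6C+ against Ly6C- pCAFs, and folds are ratios of these means. Log2 changes are Ly6C+ minus Ly6C- on log2(normalised count + 1), from limma, a linear model fitted across 9646 genes with a mean of at least 5; a gene was called at a Benjamini-Hochberg adjusted p under 0.05.

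Cells make cholesterol from acetyl-CoA through mevalonate, squalene and lanosterol. When sterol in the endoplasmic reticulum is scarce, SCAP carries the SREBP transcription factors to the Golgi for activation, and they switch on the genes of this route and of lipoprotein uptake; INSIG proteins hold SCAP back when sterol is plentiful. The liver X receptors (LXRs) answer to oxysterols, which are oxidised cholesterol, and are known to induce exporters such as ABCA1 and the carrier apolipoprotein E. In fibroblasts lipid handling is also tied to the adipocyte lineage, whose factor PPARG drives FABP4 and lipoprotein lipase.

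The promoters of 3 sterol synthesis genes that fell, and of Apod, which had the largest increase among the efflux genes, are shown first. Cyp51 and Sc5d had the largest decreases of the called sterol synthesis genes. Hmgcs1 had the smallest, and alone among sterol synthesis genes with an entry it holds TCACNCCAC, a motif known to bind SREBP. CCAAT is known to bind the SREBP partner NF-Y, and both motifs were searched in these promoters. They are RefSeq sequences of GRCm38.p6 (mm10), from 250 bases before to 50 after the transcript start, written 5′ to 3′ on the gene's strand, with matches to either motif on either strand in capitals; ATTGG is CCAAT on the other strand.
Cyp51 (chr5:4104648-4104947, minus strand): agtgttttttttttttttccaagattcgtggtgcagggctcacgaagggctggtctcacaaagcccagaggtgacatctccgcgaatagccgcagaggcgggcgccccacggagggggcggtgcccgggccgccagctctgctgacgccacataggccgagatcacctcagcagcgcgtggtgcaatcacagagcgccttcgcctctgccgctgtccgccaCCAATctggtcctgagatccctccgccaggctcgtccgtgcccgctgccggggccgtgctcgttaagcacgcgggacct
Sc5d (chr9:42264251-42264550, minus strand): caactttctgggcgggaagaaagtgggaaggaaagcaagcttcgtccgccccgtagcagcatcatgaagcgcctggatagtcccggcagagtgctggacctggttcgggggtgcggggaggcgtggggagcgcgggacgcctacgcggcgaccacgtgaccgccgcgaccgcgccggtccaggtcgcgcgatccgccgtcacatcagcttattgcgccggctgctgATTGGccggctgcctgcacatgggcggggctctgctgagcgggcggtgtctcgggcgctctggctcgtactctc
Hmgcs1 (chr13:119690101-119690400, plus strand): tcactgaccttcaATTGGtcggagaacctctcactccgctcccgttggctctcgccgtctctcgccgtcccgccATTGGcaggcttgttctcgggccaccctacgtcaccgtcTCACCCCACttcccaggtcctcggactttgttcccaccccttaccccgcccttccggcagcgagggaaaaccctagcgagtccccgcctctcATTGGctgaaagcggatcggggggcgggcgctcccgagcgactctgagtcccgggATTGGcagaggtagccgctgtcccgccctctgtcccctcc
Apod (chr16:31314759-31315058, minus strand): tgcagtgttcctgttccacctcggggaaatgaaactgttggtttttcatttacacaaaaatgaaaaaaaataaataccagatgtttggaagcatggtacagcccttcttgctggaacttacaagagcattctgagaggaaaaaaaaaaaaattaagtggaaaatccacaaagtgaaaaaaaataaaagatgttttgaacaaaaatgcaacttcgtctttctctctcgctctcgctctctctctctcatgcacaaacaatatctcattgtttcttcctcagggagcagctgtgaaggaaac
The Cyp51 promoter has CCAAT beginning 29 bases before the start and Sc5d has ATTGG beginning 24 bases before it. In Hmgcs1 there are 4 copies of ATTGG, beginning 237, 176 and 45 bases before the start and at base 11 after it, and TCACCCCAC beginning 137 bases before it. The matches do not overlap each other, and neither motif matched the Apod window.

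A promoter entry was found for 43 of the 57 genes. Among the sterol synthesis genes all 10 with an entry had CCAAT on 1 strand or the other in at least 1 of their promoters. By gene the share was 41.1% of all 27025 genes with an entry and 42.4% of the 7737 tested genes with one. Counted by promoter, 10 of 12 held it, while 37.4% of 32851 promoters in the table and 36.9% of the 9923 promoters of tested genes hold it. The efflux genes had it in 0 of 5 promoters of 3 genes and the other ABCA genes in 1 of 8. TCACNCCAC occurred in 1 of the 12 sterol synthesis promoters, that of Hmgcs1, in 1 of 8 ABCA promoters and in 1.24% of all promoters. CACGTG, the E-box, was in 3 of the 12, in 2 of the 8 ABCA promoters, in 7.15% of all and in 10.2% of those of tested genes. A match is a string of letters and not a shown binding site, and other spellings of these sites were not searched.

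Of the 57 genes, 50 passed the filter on low values. In Ly6C+ pCAFs 12 of these rose, 13 fell and 25 did not pass the test, while of all 9646 tested genes 17.1% were called, 9.41% higher and 7.66% lower. The calls include Abca6 and Insig1, which passed the filter through 1 group only. In 34 of the 50 the Ly6C+ and Ly6C- values were fully apart, against 33.1% of all tested genes. Within most roles the called genes went in the same direction. Called genes of sterol synthesis and fatty acid desaturation were lower in Ly6C+ pCAFs. The carrier genes Apoe and Apod were higher, as were called genes of other ABCA transporters, lipoprotein hydrolysis, fatty acid binding and storage. The cholesterol exporter genes did not share this call, as Abca1 did not pass and Abcg1 was not tested. Among sterol sensing genes 1 rose and 1 fell, and the 1 called gene of intracellular sterol handling fell. The count of 25 fell to 13 when Ly6C+ library 1 was left out and to 16 when Ly6C- library 2 was. In bulk RNA, fewer cells with a transcript and less of it per cell cannot be told apart.

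**Figure D1:**
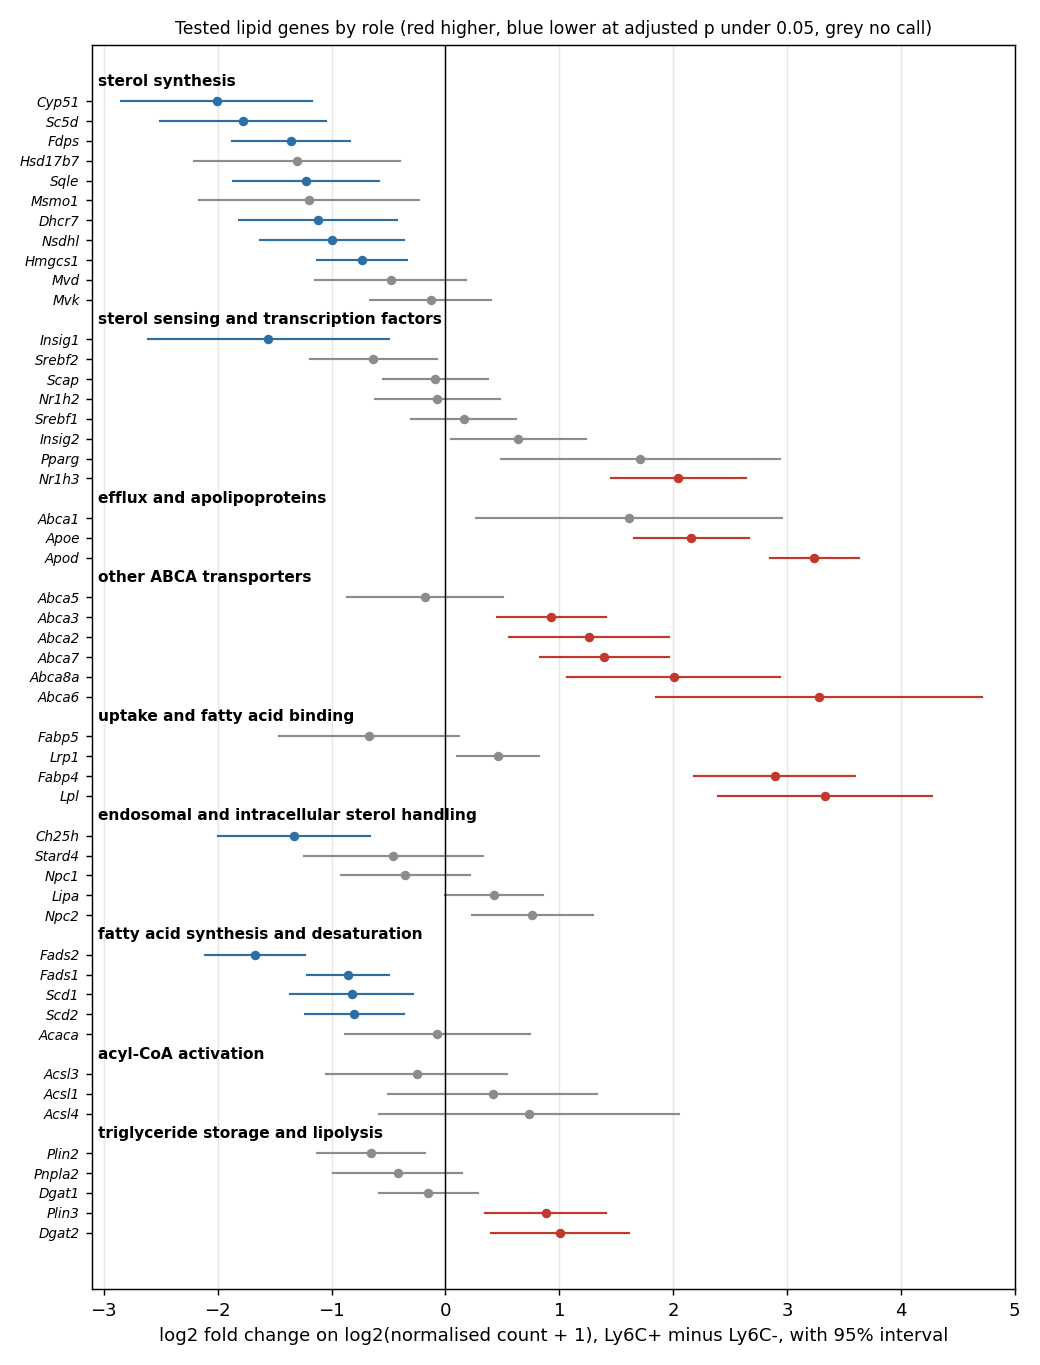
Log2 fold change of the 50 tested lipid genes (Ly6C+ minus Ly6C- pCAFs, on log2 of normalised count + 1) with 95% intervals from limma, 3 libraries per group, arranged by role. The 7 called sterol synthesis genes and 4 called fatty acid genes lie left of 0, and the 5 called ABCA genes, Apoe, Apod, Lpl and Fabp4 lie right of it.

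Genes of sterol synthesis were lower in Ly6C+ pCAFs at several steps. Of 12 genes 11 were tested, and 7 of them fell: Hmgcs1, Fdps, Sqle, Cyp51, Nsdhl, Sc5d and Dhcr7. No gene rose in limma, edgeR or DESeq2, also at an unadjusted p under 0.05, where 9 fell in each tool. The 11 had a median log2 fold change of -1.20, where all tested genes had a median of 0.00. The summed level of the 12 genes was 345 to 490.1 in the Ly6C+ and 776 to 882 in the Ly6C- libraries, without overlap.

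At the mevalonate end, Hmgcs1 (chromosome 13, 119690379 to 119708260, plus strand, mm10), the HMG-CoA synthase that makes the precursor of mevalonate, stood at 119.5, 164 and 144 in the Ly6C+ libraries and 264, 229 and 218 in the Ly6C- libraries. Each Ly6C+ library was below each Ly6C- library, and the Ly6C- mean was 1.66-fold higher. Hmgcs1 averaged 143 ± 22.2 against 237 ± 24.1 (SD, n = 3 each), a log2 change of -0.73 with an SE of 0.18 and an adjusted p of 0.016 by limma. The kinase gene Mvk, which phosphorylates mevalonate, stood at 61.0, 63.9 and 40.2 in the Ly6C+ libraries and 71.8, 54.4 and 52.4 in the Ly6C- libraries; the groups overlapped and it did not pass (log2 change of -0.13, 95% interval -0.66 to 0.40, adjusted p = 0.791 by limma). Mvd, the decarboxylase that follows, overlapped likewise, between 13.9 and 34.4 in the 6 libraries (adjusted p = 0.338).

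Fdps (chromosome 3, 89093588 to 89101959, minus strand) makes farnesyl diphosphate, the branch point to sterols and to protein prenylation. It stood at 66.5, 130.04 and 89.6 in the Ly6C+ libraries and 215, 246 and 253 in the Ly6C- libraries, and the lowest Ly6C- value was well above the highest Ly6C+ value. The Ly6C- mean was 2.49-fold higher, a call kept in each of 18 alternative settings. Fdps averaged 95.4 ± 32.2 against 238 ± 20.5 (SD, n = 3 each), a log2 change of -1.36 with an SE of 0.23 and an adjusted p of 0.00207 by limma. Sqle, squalene epoxidase, which puts oxygen on squalene and is a rate-limiting step of the route, stood at 14.6, 29.3 and 18.5 in the Ly6C+ libraries and 49.2, 39.1 and 57.7 in the Ly6C- libraries, 2.34-fold higher in Ly6C- pCAFs. Sqle averaged 20.8 ± 7.60 against 48.7 ± 9.29 (SD, n = 3 each), a log2 change of -1.22 with an SE of 0.29 and an adjusted p of 0.0139 by limma. Lss, which closes the ring to give lanosterol, was under the filter with 6 reads in the Ly6C+ and 11 in the Ly6C- group.

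Beyond lanosterol the differences were larger for Cyp51 and Sc5d. Cyp51 (chromosome 5, 4081145 to 4104746, minus strand), the lanosterol demethylase, stood at 5.49, 4.51 and 11.6 in the Ly6C+ libraries and 25.6, 25.5 and 40.6 in the Ly6C- libraries, 4.25-fold higher in Ly6C- pCAFs. Cyp51 averaged 7.20 ± 3.84 against 30.6 ± 8.71 (SD, n = 3 each), a log2 change of -2.01 with an SE of 0.38 and an adjusted p of 0.00373 by limma. Its gene overlaps the gene Akap9 on the opposite strand by 166 bases, and whether reads were counted by strand is not given in the sources used here; Srebf1 and Npc1 likewise overlap Rai1 and Rmc1. Sc5d (chromosome 9, 42251595 to 42264256, minus strand), which desaturates the sterol ring, was even among the Ly6C+ libraries and uneven among the others, at 9.76, 9.77 and 9.27 in the Ly6C+ libraries and 31.5, 24.7 and 56.4 in the Ly6C- libraries. Its mean was 3.91-fold higher in Ly6C- pCAFs, and both calls held in every alternative in which the gene was tested. Sc5d averaged 9.60 ± 0.285 against 37.5 ± 16.7 (SD, n = 3 each), a log2 change of -1.78 with an SE of 0.33 and an adjusted p of 0.00333 by limma.

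Nsdhl and Hsd17b7 take part in removing the methyl groups of lanosterol, as does Msmo1, and Dhcr7 makes cholesterol itself. Nsdhl stood at 17.7, 24.8 and 23.2 in the Ly6C+ libraries and 30.5, 47.6 and 59.0 in the Ly6C- libraries, with no overlap. Nsdhl averaged 21.9 ± 3.73 against 45.7 ± 14.3 (SD, n = 3 each), a log2 change of -0.99 with an SE of 0.29 and an adjusted p of 0.0357 by limma. Dhcr7 stood at 8.54, 10.52 and 6.95 in the Ly6C+ libraries and 19.7, 23.0 and 17.0 in the Ly6C- libraries, 2.29-fold higher in Ly6C- pCAFs. Dhcr7 averaged 8.67 ± 1.79 against 19.9 ± 2.97 (SD, n = 3 each), a log2 change of -1.12 with an SE of 0.31 and an adjusted p of 0.0309 by limma. Msmo1 was not called: its values were 11.0, 22.6 and 17.0 in the Ly6C+ libraries and 17.7, 50.2 and 62.9 in the Ly6C- libraries, and Ly6C- library 1 lay among the Ly6C+ libraries. Msmo1 averaged 16.8 ± 5.79 against 43.6 ± 23.3 (SD, n = 3 each), a log2 change of -1.20 with an SE of 0.44 and an adjusted p of 0.0928 by limma. Hsd17b7 is named although its values had been seen: it stood at 10.4, 5.26 and 6.95 in the Ly6C+ libraries and 14.8, 14.5 and 34.1 in the Ly6C- libraries and narrowly missed the threshold. Hsd17b7 averaged 7.53 ± 2.60 against 21.1 ± 11.2 (SD, n = 3 each), a log2 change of -1.31 with an SE of 0.41 and an adjusted p of 0.0519 by limma.

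Several of these calls ended when 1 library was left out, which also leaves fewer libraries to test. Settings that change a call are given here and below for the unpaired alternatives, those that do not pair libraries by number. The call of Hmgcs1 ended without the mean-variance trend (adjusted p = 0.0568), without Ly6C+ library 1 (0.0667), Ly6C- library 1 (0.0512) or Ly6C- library 2 (0.0573), with 0.00496 the lowest and 0.0667 the highest of 16 unpaired alternatives. That of Sqle ended without Ly6C+ library 1 (adjusted p = 0.0655), with 0.00536 the lowest and 0.0655 the highest of 16 unpaired alternatives. That of Nsdhl ended without the mean-variance trend (adjusted p = 0.0591), without Ly6C+ library 1 (0.134), Ly6C+ library 2 (0.0655), Ly6C+ library 3 (0.0685), Ly6C- library 2 (0.13) or Ly6C- library 3 (0.0969), with 0.00869 the lowest and 0.134 the highest of 16 unpaired alternatives. The Dhcr7 call ended without Ly6C+ library 1 (adjusted p = 0.0841), Ly6C+ library 2 (0.0506), Ly6C+ library 3 (0.0885), Ly6C- library 1 (0.0615), Ly6C- library 2 (0.135) or in DESeq2 (0.0912), with 0.0142 the lowest and 0.135 the highest of 15 unpaired alternatives. Msmo1 passed with each library scaled to its total (adjusted p = 0.0421), without Ly6C- library 1 (0.00294), in edgeR (0.043) or in DESeq2 (0.0204), with 0.00294 the lowest and 0.298 the highest of 16 unpaired alternatives, and Hsd17b7 passed after quantile normalization (adjusted p = 0.0393), with median-of-ratios size factors (0.0494), with each library scaled to its total (0.0234), without Ly6C- library 1 (0.0384) or in edgeR (0.0458), with 0.0234 the lowest and 0.17 the highest of 15 unpaired alternatives. With Ly6C+ library 1 left out 3 sterol synthesis genes were called, and with Ly6C- library 2 left out 4 were. Calls over all tested genes also fell, from 1647 to 1121 in each of these settings.

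**Figure D2:**
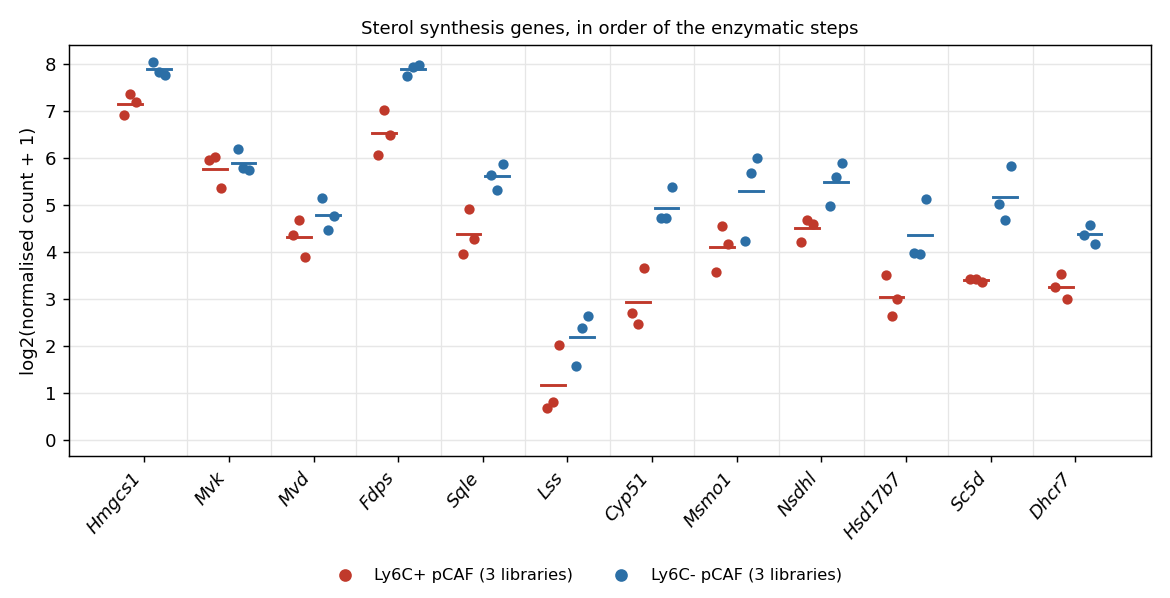
Log2(normalised count + 1) of the 12 sterol synthesis genes in each of 6 libraries, ordered by enzymatic step, with group means as bars. The Ly6C+ points of Hmgcs1, Fdps, Sqle, Cyp51, Nsdhl, Sc5d and Dhcr7 lie below all Ly6C- points, while those of Mvk, Mvd, Lss and Msmo1 overlap.

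Markers of other cells moved with these groups. All 6 epithelial markers had a value, 4 were tested, and Krt14 and Krt19 were called, both lower in Ly6C+ pCAFs; Krt14 stood at 0.610, 0.752 and 0.773 for Ly6C+ and 25.6, 40.8 and 26.2 for Ly6C-. Their summed level was 12.8 to 43.3 in the Ly6C+ and 109 to 352 in the Ly6C- libraries. Epcam, a marker of the sort, was near 0, at 0.610, 0 and 0 for Ly6C+ and 2.95, 0 and 1.31 for Ly6C-, and Cdh1 was at or below 1.97. Of 7 endothelial markers 3 had a value, summing to 6.01 to 11.6 against 13.1 to 102; Kdr made up most of this, Pecam1 stayed at or below 4.25, and Cldn5 was at 0 in all Ly6C+ libraries. The sort left out EpCAM+ cells, and the part of epithelial and endothelial cells in the sterol result was not tested. Both sums were highest in Ly6C- libraries 1 and 2, while the called marker Krt19 was at 57.1, 24.7 and 53.8 in Ly6C- libraries 1 to 3. Of the 7 called sterol synthesis genes, Hmgcs1 was highest in Ly6C- library 1, Dhcr7 in library 2 and the other 5 in library 3. Such ranks among 3 libraries were not tested.

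Among the genes that sense sterol, LXR alpha was higher in Ly6C+ pCAFs. Of 8 tested, Nr1h3 rose, Insig1 fell and 6 did not pass, with a median log2 fold change of 0.04. This is 25% called beside 17.1% of all tested genes, and it counts Insig1, which passed the filter on low values only through the Ly6C- group. Nr1h3 (chromosome 2, 91184061 to 91202834, minus strand), which encodes LXR alpha, stood at 40.3, 40.6 and 32.5 in the Ly6C+ libraries and 7.87, 9.36 and 7.87 in the Ly6C- libraries, 4.51-fold higher in Ly6C+ pCAFs. Nr1h3 averaged 37.8 ± 4.605 against 8.37 ± 0.859 (SD, n = 3 each), a log2 change of 2.05 with an SE of 0.27 and an adjusted p of 0.00034 by limma. The groups were far apart and the call held in all 18 alternatives. Its relative Nr1h2, LXR beta, overlapped between the groups, at 239, 182 and 129.8 in the Ly6C+ libraries and 226, 204 and 142 in the Ly6C- libraries (log2 change of -0.07, 95% interval -0.62 to 0.48, adjusted p = 0.895 by limma). Scap, the escort of SREBP, stood at 167, 149 and 202 in the Ly6C+ libraries and 139, 199 and 218 in the Ly6C- libraries and overlapped throughout (log2 change of -0.09, 95% interval -0.55 to 0.37, adjusted p = 0.837 by limma).

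Insig1, the sterol-regulated brake on SCAP and itself an SREBP target, was low in all libraries, at 1.83, 3.76 and 2.32 in the Ly6C+ libraries and 14.8, 8.51 and 6.56 in the Ly6C- libraries. It was 3.77-fold higher in Ly6C- pCAFs, on 11 reads in the Ly6C+ and 30 in the Ly6C- group, and it passed the filter on low values through the Ly6C- group. Insig1 averaged 2.64 ± 1.00 against 9.94 ± 4.29 (SD, n = 3 each), a log2 change of -1.55 with an SE of 0.48 and an adjusted p of 0.0481 by limma. The call ended with a pseudocount of 0.5 (adjusted p = 0.0532), without Ly6C+ library 1 (0.137), Ly6C+ library 2 (0.068), Ly6C+ library 3 (0.106), Ly6C- library 1 (0.157), Ly6C- library 2 (0.116) or in DESeq2 (0.0758), with 0.0187 the lowest and 0.157 the highest of 15 unpaired alternatives. Insig2, the second INSIG, was higher in each Ly6C+ library, 32.9 to 59.5 against 23.0 to 31.5, but did not pass (adjusted p = 0.143).

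The SREBP genes themselves and Pparg are given although their values were seen before they were chosen. Srebf2, the factor of sterol synthesis, stood at 54.9, 75.2 and 44.8 in the Ly6C+ libraries and 114, 88.5 and 69.5 in the Ly6C- libraries; the groups overlapped and it did not pass (log2 change of -0.63, 95% interval -1.19 to -0.08, adjusted p = 0.121 by limma). The threshold was met with each library scaled to its total (adjusted p = 0.044), with 0.044 the lowest and 0.304 the highest of 16 unpaired alternatives. Srebf1, the factor of fatty acid synthesis, lay between 127 and 204 in all libraries (adjusted p = 0.688), and its log2 fold change of 0.16 turned to -0.04 with each library scaled to its total and to -0.02 without Ly6C- library 3. Pparg, the adipocyte factor, stood at 7.93, 12.8 and 18.5 in the Ly6C+ libraries and 4.92, 0.851 and 5.24 in the Ly6C- libraries. Each Ly6C+ value exceeded each Ly6C- value, yet it did not pass. Pparg averaged 13.1 ± 5.31 against 3.67 ± 2.45 (SD, n = 3 each), a log2 change of 1.71 with an SE of 0.55 and an adjusted p of 0.0583 by limma. The threshold was met with a pseudocount of 5 (adjusted p = 0.0419), without Ly6C- library 1 (0.0347), Ly6C- library 3 (0.0323) or in edgeR (0.0466), with 0.0323 the lowest and 0.202 the highest of 15 unpaired alternatives.

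The genes of a pair of lipid carriers were higher in Ly6C+ pCAFs. Of 4 efflux genes 3 were tested; Apoe and Apod rose and Abca1 did not pass. Apod (chromosome 16, 31296192 to 31314808, minus strand), a lipocalin that binds small lipids, stood at 2200.0, 2089.7 and 1847 in the Ly6C+ libraries and 201, 186 and 266 in the Ly6C- libraries. The lowest Ly6C+ library was far above the highest Ly6C- library, and the mean was 9.39-fold higher. Apod averaged 2045 ± 181 against 218 ± 42.5 (SD, n = 3 each), a log2 change of 3.24 with an SE of 0.18 and an adjusted p of 8.74e-07 by limma. Apoe (chromosome 7, 19696109 to 19699188, minus strand), the apolipoprotein that takes up exported cholesterol, stood at 789, 1282 and 809.8 in the Ly6C+ libraries and 269.7, 182 and 185 in the Ly6C- libraries, 4.53-fold higher. Apoe averaged 960.5 ± 279 against 212 ± 49.8 (SD, n = 3 each), a log2 change of 2.16 with an SE of 0.23 and an adjusted p of 6.79e-05 by limma. Both calls held in all 18 alternatives.

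Abca1, which exports cholesterol to apolipoproteins, was even in Ly6C+ and uneven in Ly6C- pCAFs, at 15.2, 20.3 and 17.0 in the Ly6C+ libraries and 0.984, 6.81 and 13.1 in the Ly6C- libraries. The groups did not overlap, but the gene did not pass (log2 change of 1.61, 95% interval 0.27 to 2.95, adjusted p = 0.102 by limma). The ratio of means was 2.51, or 1.76 without Ly6C- library 1 and 4.50 without Ly6C- library 3. The threshold was met without Ly6C- library 3 (adjusted p = 0.0151), with 0.0151 the lowest and 0.252 the highest of 15 unpaired alternatives. Abcg1, which exports cholesterol to formed lipoprotein particles, was under the filter with 18 and 9 reads.

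Most other tested ABCA genes, a family that carries lipids across membranes, rose in Ly6C+ pCAFs. Of 9 genes 6 were tested, 5 rose and Abca5 did not pass. The 5 include Abca6, which passed the filter on low values only through the Ly6C+ group. Abca8a (chromosome 11, 110025634 to 110095978, minus strand) stood at 76.9, 74.4 and 40.2 in the Ly6C+ libraries and 25.6, 6.81 and 17.0 in the Ly6C- libraries, 3.87-fold higher. Abca8a averaged 63.8 ± 20.5 against 16.5 ± 9.40 (SD, n = 3 each), a log2 change of 2.00 with an SE of 0.43 and an adjusted p of 0.00738 by limma. Abca7, a phospholipid transporter, stood at 48.8, 33.8 and 39.4 in the Ly6C+ libraries and 15.7, 12.8 and 15.7 in the Ly6C- libraries, 2.76-fold higher. Abca7 averaged 40.7 ± 7.56 against 14.7 ± 1.72 (SD, n = 3 each), a log2 change of 1.39 with an SE of 0.26 and an adjusted p of 0.00315 by limma. Neither gene's groups overlapped.

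Abca2, a transporter of endosomes and lysosomes, stood at 98.2, 57.9 and 68.0 in the Ly6C+ libraries and 43.3, 33.2 and 18.4 in the Ly6C- libraries. Abca2 averaged 74.7 ± 21.0 against 31.6 ± 12.5 (SD, n = 3 each), a log2 change of 1.26 with an SE of 0.32 and an adjusted p of 0.0188 by limma. Abca3, known for packing surfactant lipid in the lung, stood at 66.5, 52.6 and 65.7 in the Ly6C+ libraries and 36.4, 28.9 and 30.2 in the Ly6C- libraries. Abca3 averaged 61.6 ± 7.78 against 31.8 ± 4.02 (SD, n = 3 each), a log2 change of 0.93 with an SE of 0.22 and an adjusted p of 0.0123 by limma. Abca6 rested on 63 reads in the Ly6C+ and 2 in the Ly6C- group, at 18.9, 18.04 and 6.18 in the Ly6C+ libraries and 1.97, 0 and 0 in the Ly6C- libraries, 21.8 times as many after scaling (5.80 to 184, the exact binomial 95% bounds, for counting error only). It passed the filter through the Ly6C+ group. Abca6 averaged 14.4 ± 7.11 against 0.656 ± 1.14 (SD, n = 3 each), a log2 change of 3.28 with an SE of 0.65 and an adjusted p of 0.00497 by limma.

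On chromosome 11 (mm10) the genes Abca8b, Abca8a, Abca9, Abca6 and Abca5 follow each other on the minus strand from 109932190 to 110337716. Abca5, at the far end, stood at 15.9, 12.8 and 11.6 in the Ly6C+ libraries and 11.8, 16.2 and 18.4 in the Ly6C- libraries and its groups overlapped (log2 change of -0.18, 95% interval -0.87 to 0.51, adjusted p = 0.769 by limma). The remaining pair of neighbours were under the filter: Abca9 was at 6.71, 11.3 and 5.41 in the Ly6C+ libraries and 1.97, 1.70 and 2.62 in the Ly6C- libraries, and Abca8b, with 22 reads in Ly6C+ pCAFs, had no read in Ly6C- pCAFs and was at least 4.87-fold higher, with a floor of 3 reads for the whole group. So Abca8b, Abca8a, Abca9 and Abca6 had Ly6C+ values above all Ly6C- values, and Abca5 had not. These neighbours are related in sequence, and reads may be divided uncertainly between them. Abca4, which lies on chromosome 3, had 3 and 2 reads.

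Among these calls, that of Abca2 ended without the mean-variance trend (adjusted p = 0.0536) or without Ly6C+ library 1 (0.101), with 0.00483 the lowest and 0.101 the highest of 16 unpaired alternatives. The Abca3 call ended without Ly6C+ library 1 (adjusted p = 0.0591) or Ly6C- library 2 (0.0592), with 0.0106 the lowest and 0.0592 the highest of 16 unpaired alternatives, and that of Abca8a ended without Ly6C+ library 1 (adjusted p = 0.0506), with 9.28e-05 the lowest and 0.0506 the highest of 16 unpaired alternatives. Abca3 overlaps a transcript on the opposite strand, D330041H03Rik, which had few reads.

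**Figure D3:**
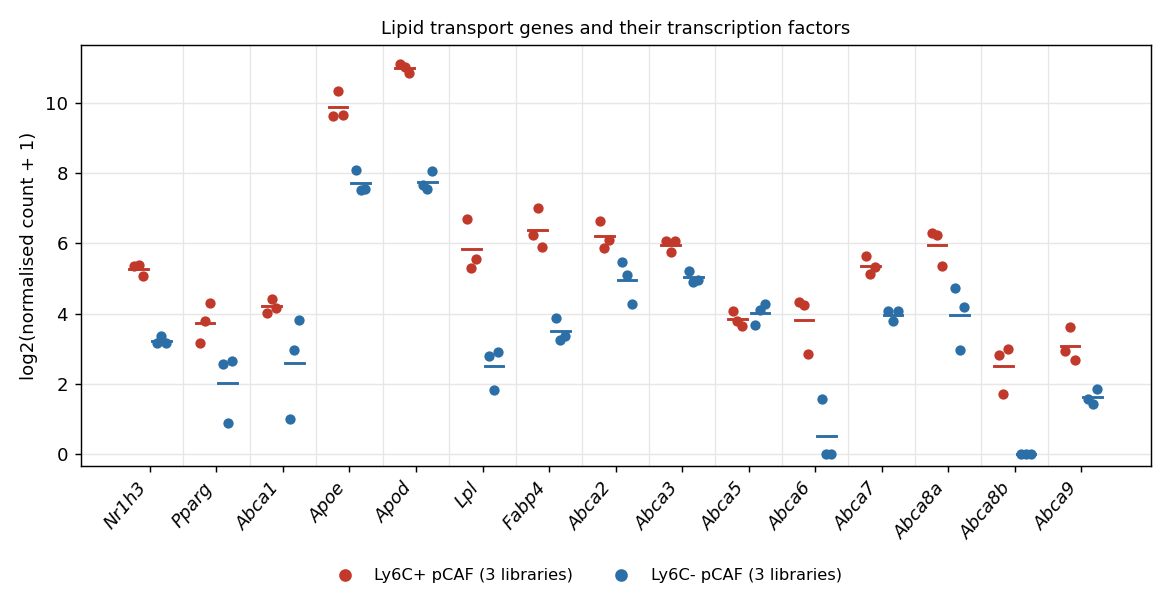
Log2(normalised count + 1) of lipid transport genes, Nr1h3 and Pparg in each of 6 libraries, with group means as bars. Apod, Apoe, Lpl, Fabp4 and Nr1h3 have all Ly6C+ points above all Ly6C- points, Abca5 overlaps, and Abca8b is at 0 in the 3 Ly6C- libraries.

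Within the set, the called uptake genes were higher in Ly6C+ pCAFs, while the lipoprotein receptor gene Scarb1, outside the set, was lower, as given further below. Of 4 uptake genes of the set, all tested, Lpl and Fabp4 rose and Lrp1 and Fabp5 did not pass. Lpl (chromosome 8, 68880491 to 68907448, plus strand), lipoprotein lipase, which frees fatty acids from circulating triglyceride, stood at 103, 38.3 and 45.6 in the Ly6C+ libraries and 5.91, 2.55 and 6.56 in the Ly6C- libraries. Ly6C+ library 1 was the highest, and the mean was 12.5-fold higher in Ly6C+ pCAFs, or 8.39-fold without that library. Lpl averaged 62.3 ± 35.5 against 5.004 ± 2.15 (SD, n = 3 each), a log2 change of 3.34 with an SE of 0.43 and an adjusted p of 0.000275 by limma. Fabp4 (chromosome 3, 10204088 to 10208576, minus strand), a fatty acid chaperone of adipocytes and macrophages, stood at 75.0, 128 and 58.7 in the Ly6C+ libraries and 13.8, 8.51 and 9.18 in the Ly6C- libraries, 8.31-fold higher. Fabp4 averaged 87.2 ± 36.1 against 10.49 ± 2.87 (SD, n = 3 each), a log2 change of 2.89 with an SE of 0.32 and an adjusted p of 9.61e-05 by limma.

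The paralog Fabp5, on the same chromosome, was not called, at 14.6, 12.8 and 10.04 in the Ly6C+ libraries and 33.5, 14.5 and 17.0 in the Ly6C- libraries (log2 change of -0.67, 95% interval -1.46 to 0.12, adjusted p = 0.252 by limma). Lrp1, a large endocytic receptor that takes up apolipoprotein E particles, stood at 4650.1, 4389 and 4273 in the Ly6C+ libraries and 2854, 3296 and 3553 in the Ly6C- libraries. Every Ly6C+ value exceeded every Ly6C- value, but the 1.37-fold difference did not pass (log2 change of 0.46, 95% interval 0.10 to 0.82, adjusted p = 0.0823 by limma), and after quantile normalization it was -0.13.

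Lyz2, which macrophages and neutrophils express strongly, was uneven and higher in Ly6C+ pCAFs, at 264, 98.5 and 27.0 in the Ly6C+ libraries and 25.6, 1.70 and 3.93 in the Ly6C- libraries (adjusted p = 0.0124), and Ly6C+ library 1, highest for Lyz2, was also highest for Lpl. Of 9 macrophage markers 8 had a value; 6 were tested, 1 rose (Lyz2) and 5 did not pass. They summed to 134 to 352 in the Ly6C+ and 56.4 to 172 in the Ly6C- libraries. Csf1r, the receptor that macrophages need, was at 28.7, 35.3 and 27.0 for Ly6C+ and 31.5, 20.4 and 28.8 for Ly6C-, and Ptprc was at 4.88, 1.503 and 1.55 for Ly6C+ and 0, 0 and 0 for Ly6C-. Of 8 adipocyte markers 4 had a value, summing to 19.3 to 21.8 against 9.18 to 17.0, and Lipe made up nearly all of it. Of the defining adipocyte genes, Cfd was at 0 in all libraries and Adipoq at or below 0.773. Apod, Apoe and Fabp4 were highest in Ly6C+ libraries 1, 2 and 2. The macrophage sum was highest in library 1, as were Lyz2 and Ptprc, while Csf1r, Cd68, C1qa, C1qb and Cd14 were highest in library 2. The sort left out CD45+ cells, and the part of macrophages in the uptake and efflux results was not tested.

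**Figure D4:**
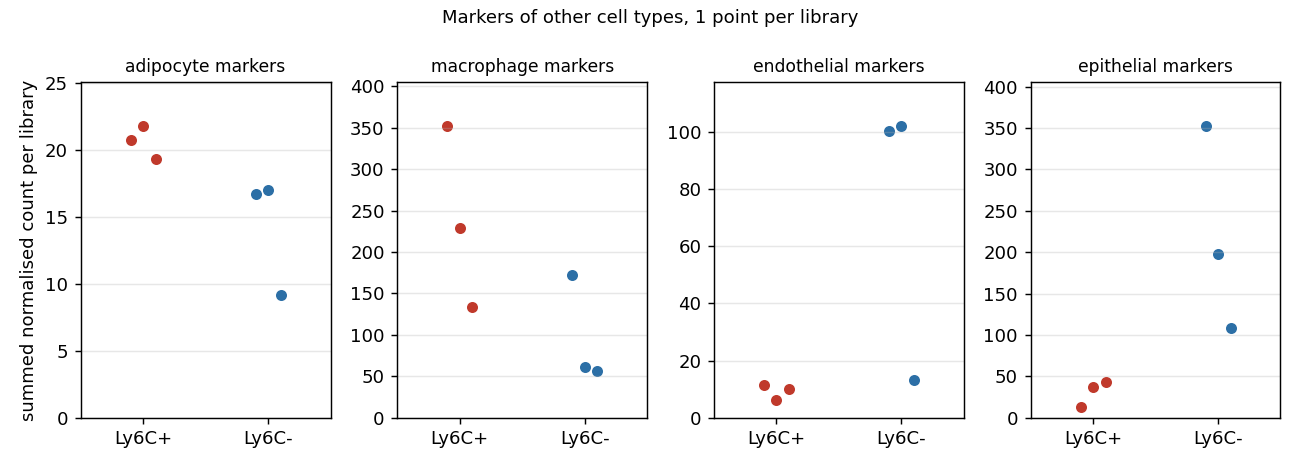
Summed normalised counts of marker genes of adipocytes, macrophages, endothelium and epithelium in each library, each panel on its own linear axis from 0. Macrophage sums reach 352 in Ly6C+ and 172 in Ly6C- pCAFs, epithelial sums reach 43.3 and 352, and adipocyte sums stay at or below 21.8.

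Of the genes that free, move and oxidise sterol inside the cell, 1 was called. Of 5 tested, Ch25h fell and 4 did not pass, with a median of -0.35. The share called, 20%, was near the 17.1% of all tested genes. Ch25h (chromosome 19, 34473778 to 34475164, minus strand), which makes an oxysterol that restrains SREBP, stood at 37.2, 88.7 and 41.7 in the Ly6C+ libraries and 119, 159.9 and 119 in the Ly6C- libraries. Ly6C+ library 2 was nearest to the Ly6C- libraries, and the Ly6C- mean was 2.38-fold higher. Ch25h averaged 55.9 ± 28.5 against 133 ± 23.5 (SD, n = 3 each), a log2 change of -1.33 with an SE of 0.30 and an adjusted p of 0.0108 by limma. The call ended without Ly6C+ library 1 (adjusted p = 0.0581) or Ly6C- library 2 (0.0592), with 0.00102 the lowest and 0.0592 the highest of 16 unpaired alternatives.

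Lipa, the lysosomal lipase that frees cholesterol from its esters, stood at 72.0, 87.2 and 94.3 in the Ly6C+ libraries and 58.1, 60.4 and 68.2 in the Ly6C- libraries (log2 change of 0.43, 95% interval 0.00 to 0.86, adjusted p = 0.175 by limma). Npc2, which hands that cholesterol on to NPC1 for exit from the lysosome, stood at 40.9, 40.6 and 36.3 in the Ly6C+ libraries and 26.6, 23.8 and 18.4 in the Ly6C- libraries, with no overlap but just short of the threshold, and the threshold was met without Ly6C- library 1 (adjusted p = 0.0464), with 0.0464 the lowest and 0.171 the highest of 16 unpaired alternatives. Npc2 averaged 39.3 ± 2.55 against 22.9 ± 4.18 (SD, n = 3 each), a log2 change of 0.76 with an SE of 0.24 and an adjusted p of 0.0519 by limma. Npc1 itself lay between 18.04 and 31.5 (adjusted p = 0.415) and Stard4, a cytosolic sterol carrier, between 9.15 and 27.2 (adjusted p = 0.452), both with overlap.

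The fatty acid desaturase genes were lower in Ly6C+ pCAFs. Of 7 genes 5 were tested; Scd1, Scd2, Fads1 and Fads2 fell and Acaca did not pass. No gene rose at an unadjusted p under 0.05 in limma, edgeR or DESeq2. Fads2 (chromosome 19, 10062765 to 10101746, minus strand), which starts the making of long polyunsaturated fatty acids, stood at 79.9, 87.9 and 64.1 in the Ly6C+ libraries and 240.1, 299 and 209.8 in the Ly6C- libraries, 3.23-fold higher in Ly6C- pCAFs. Fads2 averaged 77.3 ± 12.1 against 249.5 ± 45.1 (SD, n = 3 each), a log2 change of -1.67 with an SE of 0.20 and an adjusted p of 0.000161 by limma. Fads1 (chromosome 19, 10182888 to 10196877, plus strand), a later desaturase of that route and a neighbour of Fads2 on the opposite strand, stood at 157, 177 and 192 in the Ly6C+ libraries and 291, 334 and 329 in the Ly6C- libraries, 1.81-fold higher. Fads1 averaged 175 ± 17.5 against 318 ± 23.5 (SD, n = 3 each), a log2 change of -0.86 with an SE of 0.16 and an adjusted p of 0.00374 by limma. The groups were apart in both, and both calls held in all 18 alternatives.

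Scd1 and Scd2 encode related enzymes that put the single double bond into saturated fatty acids. Scd2 stood at 174, 216 and 228 in the Ly6C+ libraries and 317, 312 and 459 in the Ly6C- libraries, 1.76-fold higher in Ly6C- pCAFs. Scd2 averaged 206 ± 28.5 against 363 ± 83.3 (SD, n = 3 each), a log2 change of -0.80 with an SE of 0.20 and an adjusted p of 0.0169 by limma. Scd1 stood at 44.5, 54.9 and 43.3 in the Ly6C+ libraries and 116, 82.5 and 62.9 in the Ly6C- libraries, 1.83-fold higher. Scd1 averaged 47.6 ± 6.37 against 87.2 ± 26.9 (SD, n = 3 each), a log2 change of -0.82 with an SE of 0.25 and an adjusted p of 0.0419 by limma. Reads from related stretches of the pair may be divided uncertainly. The Scd2 call ended without the mean-variance trend (adjusted p = 0.0652) or without Ly6C+ library 1 (0.0759), with 0.00331 the lowest and 0.0759 the highest of 16 unpaired alternatives. That of Scd1 ended without the mean-variance trend (adjusted p = 0.0858), without Ly6C+ library 1 (0.128), Ly6C+ library 2 (0.0639), Ly6C+ library 3 (0.112), Ly6C- library 1 (0.134) or Ly6C- library 2 (0.115), with 0.0109 the lowest and 0.134 the highest of 16 unpaired alternatives.

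The genes of the enzymes that build the fatty acid chain were not called or not tested. Acaca, acetyl-CoA carboxylase, which commits carbon to fatty acids, stood at 31.1, 19.5 and 17.0 in the Ly6C+ libraries and 31.5, 28.9 and 13.1 in the Ly6C- libraries (log2 change of -0.07, 95% interval -0.88 to 0.74, adjusted p = 0.933 by limma), and its sign turned without Ly6C+ libraries 2 or 3 or Ly6C- libraries 1 or 2 (0.01, 0.10, 0.15 and 0.09 on the log2 scale). Fasn, the synthase, and Elovl6, an elongase, were under the filter with 11 and 10 reads and with 25 and 13 reads in the Ly6C+ and Ly6C- groups. Fasn and Elovl6 were therefore not tested in the main fit, and their few reads give no close measure of a difference.

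The acyl-CoA synthetases, which activate fatty acids for use, were not called. Of 3 tested, 0 passed in limma, edgeR or DESeq2, and 0 had an unadjusted p under 0.05 in any of them. Acsl4, which prefers polyunsaturated fatty acids, was uneven at 15.9, 39.8 and 40.2 in the Ly6C+ libraries and 50.2, 6.81 and 14.4 in the Ly6C- libraries (log2 change of 0.73, 95% interval -0.58 to 2.05, adjusted p = 0.477 by limma), and the threshold was met without Ly6C- library 1 (adjusted p = 0.0389), with 0.0389 the lowest and 0.937 the highest of 16 unpaired alternatives. The ratio of the Acsl4 means was 1.34, or 3.01 without Ly6C- library 1 and 0.989 without Ly6C- library 2. Acsl3, at 7.32, 9.77 and 7.73 in the Ly6C+ libraries and 8.86, 8.51 and 13.1 in the Ly6C- libraries, overlapped (log2 change of -0.25, 95% interval -1.04 to 0.54, adjusted p = 0.715 by limma). Acsl1 lay between 4.92 and 9.76.

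The called storage genes were higher in Ly6C+ pCAFs. Of 5 tested, Dgat2 and Plin3 rose and Dgat1, Plin2 and Pnpla2 did not pass. Dgat2, which adds the last acyl chain of triglyceride, stood at 25.0, 27.1 and 28.6 in the Ly6C+ libraries and 15.7, 12.8 and 10.49 in the Ly6C- libraries, 2.07-fold higher in Ly6C+ pCAFs. Dgat2 averaged 26.9 ± 1.80 against 13.0 ± 2.64 (SD, n = 3 each), a log2 change of 1.01 with an SE of 0.28 and an adjusted p of 0.027 by limma. Plin3, a coat protein of nascent lipid droplets, stood at 149, 145 and 133 in the Ly6C+ libraries and 101, 85.1 and 52.4 in the Ly6C- libraries, 1.79-fold higher. Plin3 averaged 142 ± 8.32 against 79.6 ± 24.9 (SD, n = 3 each), a log2 change of 0.88 with an SE of 0.24 and an adjusted p of 0.0269 by limma. The groups overlapped in neither.

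The better known droplet coat gene Plin2 was not called, at 86.6, 65.4 and 58.7 in the Ly6C+ libraries and 104, 96.1 and 131 in the Ly6C- libraries, without overlap (log2 change of -0.65, 95% interval -1.12 to -0.18, adjusted p = 0.0608 by limma). The threshold was met with each library scaled to its total (adjusted p = 0.0144) or without Ly6C+ library 1 (0.0442), with 0.0144 the lowest and 0.176 the highest of 16 unpaired alternatives. Dgat1, which makes triglyceride by the same reaction as Dgat2, overlapped at 66.5, 64.6 and 62.6 in the Ly6C+ libraries and 60.0, 75.7 and 81.3 in the Ly6C- libraries (log2 change of -0.15, 95% interval -0.58 to 0.28, adjusted p = 0.688 by limma). Pnpla2, which begins triglyceride breakdown, lay between 25.5 and 53.6 (adjusted p = 0.329). The call of Dgat2 ended with each library scaled to its total (adjusted p = 0.0647), without Ly6C+ library 1 (0.0732), Ly6C+ library 2 (0.0945), Ly6C+ library 3 (0.0844), Ly6C- library 2 (0.0824), Ly6C- library 3 (0.0559) or in DESeq2 (0.108), with 0.0181 the lowest and 0.108 the highest of 15 unpaired alternatives. That of Plin3 ended with each library scaled to its total (adjusted p = 0.0797), without the mean-variance trend (0.0754), without Ly6C+ library 1 (0.0958), Ly6C+ library 2 (0.0864), Ly6C+ library 3 (0.0552), Ly6C- library 2 (0.0606) or Ly6C- library 3 (0.0507), with 0.0083 the lowest and 0.0958 the highest of 16 unpaired alternatives.

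**Figure D5:**
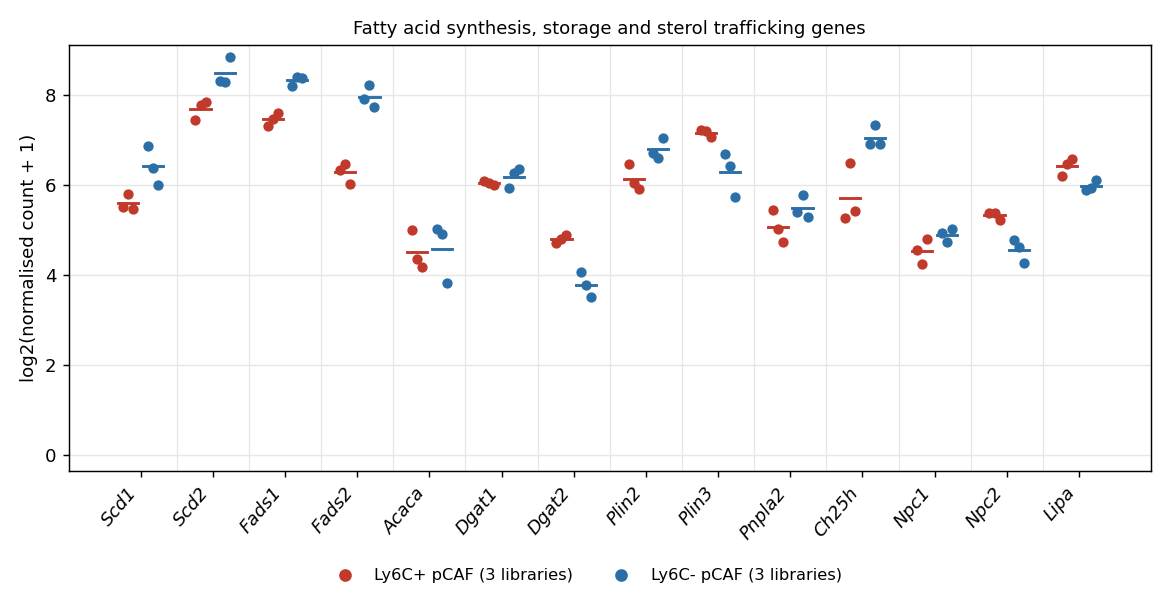
Log2(normalised count + 1) of fatty acid, storage and intracellular sterol genes in each of 6 libraries, with group means as bars. Scd1, Scd2, Fads1, Fads2 and Ch25h have all Ly6C+ points below all Ly6C- points, Dgat2 and Plin3 have them above, and Acaca and Dgat1 overlap.

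Genes of the same pathways outside the set were counted from lists drawn up beside it. Of 8 other tested sterol synthesis genes 0 passed in limma and DESeq2 and 1 in edgeR, with a median of -0.49; 4 were lower at an unadjusted p under 0.05 in each tool. Of 10 other SREBP or LXR target genes 4 fell and 1 rose, with the targets of both factors counted together. Arl4c, named although its values had been seen, fell. It stood at 53.1, 35.3 and 41.7 in the Ly6C+ libraries and 92.5, 91.9 and 55.1 in the Ly6C- libraries. Its log2 change was -0.85 (adjusted p = 0.0455 by limma). Lpcat3 did not pass (log2 change of 0.32, adjusted p = 0.230 by limma).

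Mylip, a ubiquitin ligase, was the 1 gene of that SREBP or LXR target list that rose. It stood at 58.6, 33.8 and 75.0 in the Ly6C+ libraries and 13.8, 16.2 and 24.9 in the Ly6C- libraries, 3.05-fold higher in Ly6C+ pCAFs. Mylip averaged 55.8 ± 20.7 against 18.3 ± 5.86 (SD, n = 3 each), a log2 change of 1.53 with an SE of 0.33 and an adjusted p of 0.00833 by limma. The groups did not overlap, and the call of Mylip held in all 18 alternatives.

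Of 12 other uptake and transport genes 2 rose, 2 fell and 8 did not pass. Scarb1, a receptor for high-density lipoprotein, stood at 12.8, 18.8 and 14.7 in the Ly6C+ libraries and 71.8, 68.9 and 61.6 in the Ly6C- libraries, 4.37-fold higher in Ly6C- pCAFs. Scarb1 averaged 15.4 ± 3.06 against 67.5 ± 5.27 (SD, n = 3 each), a log2 change of -2.07 with an SE of 0.24 and an adjusted p of 0.000121 by limma. Pltp, which moves phospholipid between lipoproteins, stood at 183, 137 and 95.04 in the Ly6C+ libraries and 32.5, 30.6 and 9.18 in the Ly6C- libraries, 5.74-fold higher in Ly6C+ pCAFs. Pltp averaged 138 ± 44.0 against 24.1 ± 13.0 (SD, n = 3 each), a log2 change of 2.61 with an SE of 0.42 and an adjusted p of 0.00133 by limma. Apoc1, a small apolipoprotein whose gene lies beside Apoe, stood at 17.1, 18.04 and 10.8 in the Ly6C+ libraries and 2.95, 2.55 and 3.93 in the Ly6C- libraries, 4.87-fold higher. Apoc1 averaged 15.3 ± 3.92 against 3.15 ± 0.711 (SD, n = 3 each), a log2 change of 1.96 with an SE of 0.40 and an adjusted p of 0.00589 by limma. The groups of these 3 genes did not overlap.

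Of 11 other droplet genes Hilpda fell and 10 did not pass, 9.09% called beside 17.1% of all tested genes. Hilpda, a hypoxia-induced inhibitor of lipolysis, stood at 107, 253 and 149 in the Ly6C+ libraries and 385, 299 and 244 in the Ly6C- libraries; Ly6C+ library 2 lay among the Ly6C- libraries, and the adjusted p of 0.0497 was just under the threshold. The call ended with a pseudocount of 0.5 (adjusted p = 0.0519), with a mean of at least 20 (0.0517), with median-of-ratios size factors (0.0502), without the mean-variance trend (0.129), without Ly6C+ library 1 (0.192), Ly6C+ library 3 (0.126), Ly6C- library 1 (0.117), Ly6C- library 2 (0.129) or in edgeR (0.0582), with 0.00789 the lowest and 0.192 the highest of 16 unpaired alternatives. Of 10 fatty acid oxidation genes Cpt1a and Cpt2, the carnitine transferases of mitochondrial import, rose and 8 did not pass. That is 20% called, near the 17.1% of all tested genes. Cpt1a stood at 97.6, 93.2 and 103 in the Ly6C+ libraries and 55.1, 64.7 and 47.2 in the Ly6C- libraries and Cpt2 at 81.1, 94.7 and 104 in the Ly6C+ libraries and 55.1, 56.1 and 61.6 in the Ly6C- libraries, neither with overlap. Cpt1a averaged 97.9 ± 4.79 against 55.7 ± 8.74 (SD, n = 3 each), a log2 change of 0.81 with an SE of 0.19 and an adjusted p of 0.0139 by limma. Cpt2 averaged 93.1 ± 11.3 against 57.6 ± 3.50 (SD, n = 3 each), a log2 change of 0.68 with an SE of 0.19 and an adjusted p of 0.0305 by limma. The Cpt1a call ended with each library scaled to its total (adjusted p = 0.0535), with 0.0117 the lowest and 0.0535 the highest of 16 unpaired alternatives. That of Cpt2 ended with each library scaled to its total (adjusted p = 0.104), without the mean-variance trend (0.0578), without Ly6C+ library 2 (0.108), Ly6C+ library 3 (0.0965), Ly6C- library 1 (0.0722), Ly6C- library 2 (0.108) or in DESeq2 (0.0631), with 0.0251 the lowest and 0.108 the highest of 16 unpaired alternatives.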

How the data were processed

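The deposited table gives a signal per gene and library, which the authors had scaled, each library by a single factor. HTSeq, STAR 2.4.2a, bcl2fastq and the build mm10 are named, without roles, per the submitters' processing notes. The annotation, strand handling, gene filter and scaling tool are not given in the sources used here. Each value was a whole multiple of its library's step (100% within 0.001), so whole reads were recovered for count tests.

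Groups were compared with limma 3.58.1 in R 4.3.3 (mean-variance trend, no block, pseudocount 1) on 9646 genes with a mean of at least 5, Benjamini-Hochberg adjusted over these. On this log2(signal + 1) scale the change of low genes is understated. On recovered reads edgeR 4.0.16 (quasi-likelihood) called 1721 and DESeq2 1.42.0 called 1549 genes, against 1647 in limma. The scripts were first tested on simulated data.

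The lipid genes and lists were chosen with earlier results of these data known. Values in all 6 libraries are given for each called gene and, per role, for the 2 most abundant uncalled genes, and up to 3 called genes are named per pathway list, except some that are not reported here. Coordinates are from GENCODE M21 (GRCm38). Of the set 7 genes were under the filter, and 3 tested genes (Abca6, Insig1, Pparg) passed it through 1 group. Counting intervals cover counting error only. Python 3.11.15, pandas 2.3.3, scipy 1.17.1 and matplotlib 3.10.9 were used.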

Additional observations from a re-analysis of the deposited data

How the results depend on the processing

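Of 25 called lipid genes 12 passed in every alternative in which they were tested (7 higher, 5 lower; 18 for 10 genes, and 17 for Abca6 and Cyp51, which a minimum mean of 20 leaves out) and 13 lost the call in at least 1; none changed sign. Of 25 uncalled tested genes 9 passed somewhere. The count of called lipid genes was 13 to 26 when 1 library was left out (7 to 15 higher, 6 to 12 lower), with 3 to 7 called sterol synthesis genes. Over all genes 1121 to 1728 were called then (609 to 987 higher, 469 to 741 lower). Scaling each library to its total moved the median of all tested genes by -0.19, with 1211 genes lower against 739 and 37.4% of calls higher against 55.1%; the set then had 10 higher and 17 lower. Quantile normalization gave 50.7% higher.

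Sign changes were all in uncalled genes. Lrp1 was -0.13 after quantile normalization and Srebf1 -0.036 when scaled to the total. Leaving out 1 library moved Acaca between -0.45 and 0.15, Mvk between -0.25 and 0.081, Nr1h2 between -0.28 and 0.16, Scap between -0.28 and 0.041, and Srebf1 between -0.018 and 0.30. The cause was not tested. With 3 libraries a group, genes of a few reads per library could not be measured closely.

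Replicate numbers are shared by the groups, but nothing in the labels says that they pair the libraries. Same-numbered libraries deviated together with r = 0.13, 0.05 and 0.17 across genes, and each correlated best with its own number, a hint from the data only. With the replicate block 2088 genes and 31 of the set were called (15 higher, 16 lower; 9 in sterol synthesis), and in edgeR with the block 2113 and 32. With the block Insig1 was not called (adjusted p = 0.0649), and Msmo1, Hsd17b7, Srebf2, Pparg, Abca1, Npc2 and Plin2 were (0.0134 to 0.0484); Lrp1 was called in edgeR with the block (0.0384).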
